A study of Mus musculus with 6 samples.

Results

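The genes described here shape, move and quality-control mitochondria, and were measured in motor neurons of SOD1 and wild type (WT) mice: Opa1, Mfn1, Mfn2, Fis1, Mff, Dnm1l, Pink1, Rhot1, Vdac1 and Opa3. These 10 of 18193 genes named on the array were read by 33 of its 45037 probe sets, a probe set being a group of probes that gives 1 signal, and members were taken where the platform annotation gave exactly 1 symbol. The first 9 genes belong to the machinery by function. Opa3 was added because one of its probe sets was lower in SOD1, so its values in that comparison describe the choice and are not given as a test.

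RNA came from motor neurons of the brainstem, labelled with 3 samples from SOD1 mice and 3 from wild type mice, and each sample was hybridised to 1 array after 2 rounds of T7-based amplification. The SOD1 name refers to copper-zinc superoxide dismutase. The form of Sod1 carried, strain, age, number of animals and way of collecting the neurons are not given by the labels. Whether each sample is a different mouse is likewise unstated, so every p-value reflects only how far these samples spread, some of which may be technical.

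Mitochondria constantly fuse and divide. Mitofusins join the outer membranes and Opa1 joins the inner ones, while the dynamin-related GTPase Dnm1l is recruited by receptors such as Mff and Fis1 and constricts the organelle until it splits. Rhot1 tethers mitochondria to the motors that carry them along axons, and Pink1 marks damaged mitochondria for removal, which matters in neurons whose axons reach far from the cell body. Opa3 is a small mitochondrial membrane protein, and mutations of the human gene cause optic atrophy with 3-methylglutaconic aciduria.

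The promoters of 3 members are shown. They are those of Opa3, of Pink1, which had the largest difference among the other 9 genes, and of Opa1. Opa3 was chosen for a lower probe set, so nothing is read from the size of its difference or from its contrast with Opa1. Opa1 is the other member named for optic atrophy. Its brightest probe set hardly differed, while a dimmer one was 0.61 higher in SOD1 on the log2 scale. Sequences are from RefSeq (GRCm38.p6), run 5′ to 3′ and cover 250 bases before to 50 bases after a transcription start. All 10 members had an entry in that table. Capitals mark the GC box (GGGCGG) and the NRF1 motif (GCGCA, any base, then GCGC), each searched on both strands. NRF1 is a transcription factor of many mitochondrial genes. The Opa3 promoter is chr7:19228139-19228438 (plus strand), that of Pink1 is chr4:138326247-138326546 (minus strand) and that of Opa1 is chr16:29579084-29579383 (plus strand).
Opa3: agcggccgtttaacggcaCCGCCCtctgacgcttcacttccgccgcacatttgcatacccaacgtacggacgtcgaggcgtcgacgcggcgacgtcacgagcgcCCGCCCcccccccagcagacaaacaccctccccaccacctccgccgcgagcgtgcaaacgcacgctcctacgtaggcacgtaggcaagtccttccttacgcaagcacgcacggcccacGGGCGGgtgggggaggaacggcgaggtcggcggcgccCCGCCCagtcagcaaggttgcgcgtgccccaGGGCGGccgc
Pink1: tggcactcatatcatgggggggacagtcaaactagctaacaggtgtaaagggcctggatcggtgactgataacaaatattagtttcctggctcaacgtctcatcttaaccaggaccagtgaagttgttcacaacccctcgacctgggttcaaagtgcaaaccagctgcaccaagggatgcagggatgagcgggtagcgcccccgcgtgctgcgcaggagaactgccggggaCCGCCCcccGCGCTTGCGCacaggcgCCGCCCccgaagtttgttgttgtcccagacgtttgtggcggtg
Opa1: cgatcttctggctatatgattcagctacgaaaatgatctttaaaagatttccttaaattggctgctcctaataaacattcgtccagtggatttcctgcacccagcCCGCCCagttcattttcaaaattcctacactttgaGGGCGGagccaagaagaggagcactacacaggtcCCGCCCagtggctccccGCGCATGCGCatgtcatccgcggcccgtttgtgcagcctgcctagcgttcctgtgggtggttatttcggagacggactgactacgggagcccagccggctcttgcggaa
The Opa3 window held 5 GC boxes and no NRF1 motif, and 70.3% of its bases were G or C. The Pink1 window held 2 GC boxes and 1 NRF1 motif, and the Opa1 window 3 GC boxes and 1 NRF1 motif. Of all 32851 promoters in the table, 35.7% held the GC box and 4.6% the NRF1 motif. The letters of CREB (TGACGTCA) and FOXO (TGTTTAC) were in none of these 3 windows, and 1.79% and 3.65% of all promoters held them. The letters taken for YY1 (AAAATGGC) were in the windows of Mfn1 and Mff and in 1.54% of all promoters. A match is only a match of letters.

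The values are log2 signals after quantile normalisation and after adding 16, and a change is SOD1 minus WT ± SE with 3 arrays in each group. Adding 16 understates the change of dim probe sets. The 6 arrays had median deposited signals of 267 to 315, and a background level taken from bacterial control probe sets lay between 7.22 and 7.62. Of 12 motor neuron markers 11 were measured and none was at background on all arrays. In SOD1 8 of them were lower and 3 higher, the lowest change being -1.06 ± 0.25 for Ache. Their summed level was 18.85 to 19.00 in SOD1 and 19.00 to 19.16 in WT. Of 7 general neuron markers 5 were lower and 2 higher in SOD1, the lowest change being -1.98 ± 0.28 for Syn1. They summed to 18.31 to 18.51 in SOD1 and 18.48 to 18.66 in WT. Microglial markers were higher in SOD1 for 8 of 8 genes, with a summed level of 16.44 to 17.27 in SOD1 and 13.09 to 15.10 in WT, and none of them was at background on all arrays. Endothelial and mural markers were lower for 7 of 7 genes, at 10.72 to 11.95 in SOD1 and 13.55 to 15.73 in WT. That sum leans on the mural gene Acta2, at 12.69, 15.48 and 12.81 on WT replicates 1 to 3. The groups did not overlap for Acta2, Cldn5, Pdgfrb and Vwf but did for Tek (-0.37 ± 0.47), Kdr (-0.54 ± 0.44) and Pecam1, which was below the filter. Astrocyte markers were higher for 7 of 7, at 17.34 to 17.38 in SOD1 and 16.75 to 16.98 in WT, and oligodendrocyte markers for 6 of 6, at 17.76 to 17.87 in SOD1 and 17.45 to 17.59 in WT. In such bulk samples fewer cells of a type and less RNA per cell cannot be told apart, and the part of these shifts in the results below was not tested. Xist, the RNA of the inactive X chromosome, averaged 12.83 and 12.91 on SOD1 replicates 1 and 2, 5.71 on SOD1 replicate 3 and 5.76 to 7.07 on the WT arrays. High Xist thus divides the SOD1 group, and a fit with Xist as a covariate is given where it changed a call.

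Of the 33 member probe sets, 29 passed the filter on low signal, a mean log2 signal above the 40th percentile, and 4 did not, namely 1 each of Mfn2 and Opa3 and 2 of Dnm1l. Over the 29, changes had a median of 0.01, against -0.01 over all 27022 probe sets tested, and 15 lay within 0.2 of 0. In limma with Benjamini-Hochberg adjustment over all probe sets, 1 of the 29 passed an adjusted p of 0.05, an Opa3 probe set that was lower in SOD1. The background was 0.185% of all probe sets in either direction, 0.122% lower and 0.0629% higher in SOD1. Since Opa3 was chosen for this, nothing is read from that count. Without Opa3, 0 of 25 passed by limma, and 3 of the 25 had an unadjusted p under 0.05, all 3 higher in SOD1. Across all 29 members 4 had such a p, against 14.7% of all probe sets. The SOD1 and WT arrays did not overlap for 2 members that were higher in SOD1, against 10.5% of all probe sets, and for 3 that were lower, against 9.81%.

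**Figure D1:**
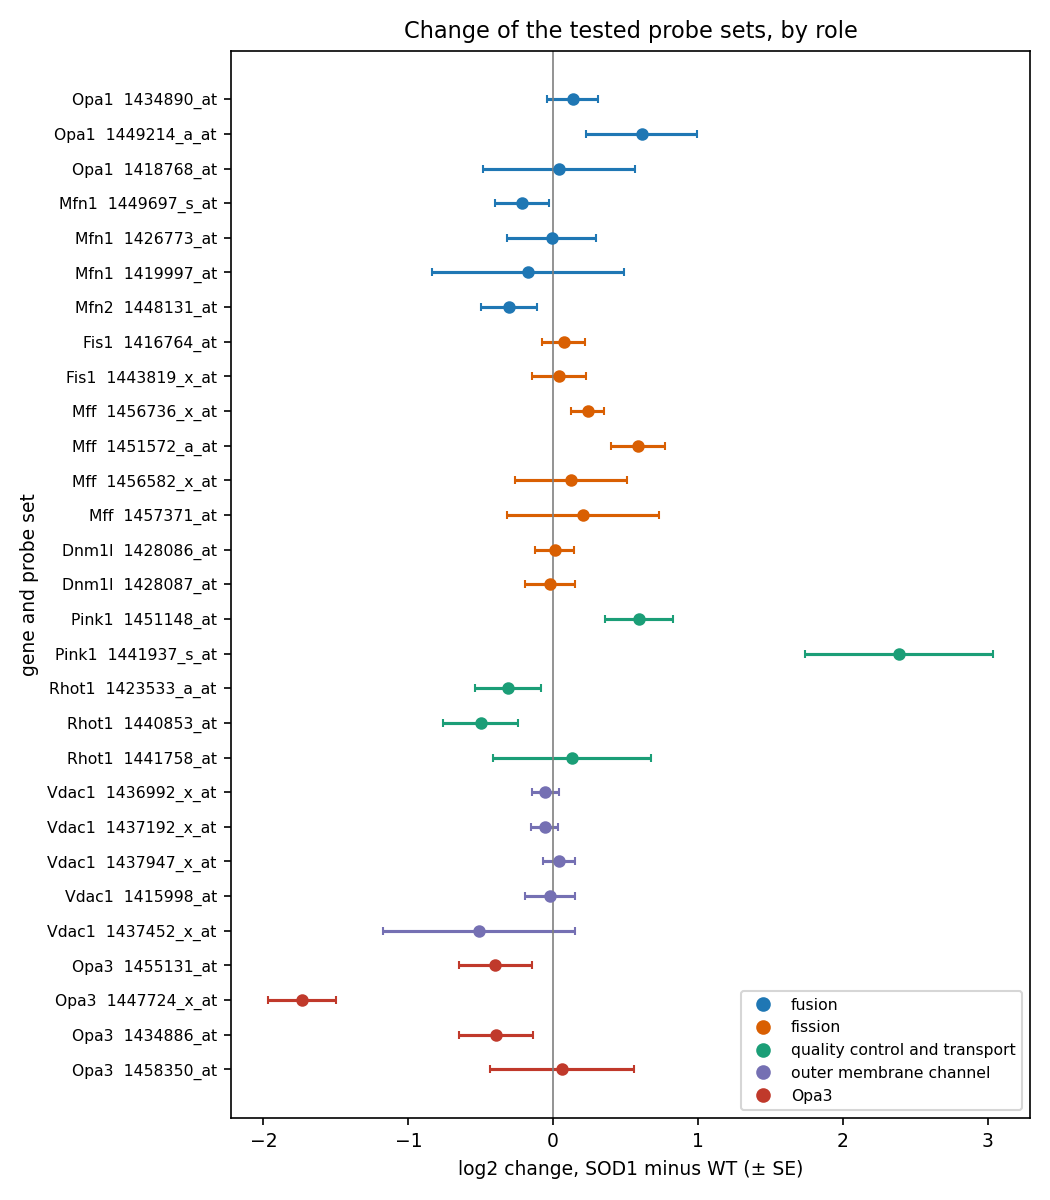
Log2 change, SOD1 minus WT, on the horizontal axis for the 29 tested probe sets, grouped by role from top to bottom; points are estimates and bars the SE, with 3 arrays per group. Most points sit near 0, with Opa3 1447724_x_at at -1.73 and Pink1 1441937_s_at at 2.39 farthest out.

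No probe set of the fusion genes passed the threshold, and the estimates ran from -0.31 for Mfn2 to 0.61 for one Opa1 probe set. Opa1, the dynamin-like GTPase of the inner membrane, was read most brightly by 1434890_at, with 15.16, 15.62 and 15.34 on SOD1 replicates 1 to 3, against 15.42, 14.87 and 15.43 on WT replicates 1 to 3. The groups overlapped, and the change was 0.13 ± 0.18 (limma, adjusted p = 0.762). The dimmer Opa1 probe set 1449214_a_at had 10.08, 10.03 and 9.36 in SOD1, against 9.40, 8.80 and 9.42 in WT, with SOD1 replicate 3 inside the WT range. Its change was 0.61 ± 0.38 (limma, adjusted p = 0.492). The last, 1418768_at, which was designed on the same sequence record as 1449214_a_at, gave 0.04 ± 0.52.

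The mitofusins Mfn1 and Mfn2 are the GTPases that tether and join outer membranes. The brightest Mfn1 probe set, 1449697_s_at, had 13.55, 13.91 and 13.53 in SOD1, against 13.67, 13.98 and 13.99 in WT. These ranges overlap, and the change was -0.22 ± 0.18 (limma, adjusted p = 0.624). The other Mfn1 probe sets gave -0.01 ± 0.31 (1426773_at) and -0.17 ± 0.66 (1419997_at), the last being at background on SOD1 replicate 1. Mfn2 1448131_at had 13.08, 12.98 and 13.45 in SOD1, against 13.52, 13.52 and 13.40 in WT, where SOD1 replicate 3 lay inside the WT range. The change was -0.31 ± 0.19 (limma, adjusted p = 0.498). The second Mfn2 probe set, 1451900_at, was below the filter and at background on all 3 SOD1 and 2 of 3 WT arrays.

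Among the fission genes, the tested probe sets of Dnm1l and Fis1 had estimates of -0.03 to 0.07 and those of Mff of 0.12 to 0.59. With each array centred on its median, Fis1 1416764_at was at 0.28 and Dnm1l 1428086_at at 0.22, neither past the threshold. Dnm1l encodes the GTPase DRP1 that constricts mitochondria. Its probe set 1428086_at had 15.10, 14.99 and 15.08 in SOD1, against 15.13, 14.82 and 15.19 in WT, so that the SOD1 arrays lay within the WT range. The change was 0.01 ± 0.14 (limma, adjusted p = 0.981), and 1428087_at gave -0.03 ± 0.17. The other Dnm1l probe sets, 1428008_at and 1452638_s_at, were at background on all 6 arrays. Fis1, an outer membrane adaptor, had 14.96, 15.03 and 15.16 in SOD1, against 14.69, 15.11 and 15.13 in WT, for 1416764_at. The groups overlapped, with a change of 0.07 ± 0.15 (limma, adjusted p = 0.863), and 1443819_x_at gave 0.04 ± 0.19.

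Mff, the receptor that draws DRP1 to the outer membrane, was read by 4 probe sets. For 1451572_a_at the SOD1 arrays had 14.54, 14.75 and 14.83 and the WT arrays 13.85, 14.00 and 14.51. All SOD1 values were above all WT values, the closest pair being SOD1 replicate 1 and WT replicate 3. The change was 0.59 ± 0.19, or 1.50-fold, and it did not pass over all probe sets (limma, adjusted p = 0.197). The brightest Mff probe set, 1456736_x_at, had 16.69, 16.60 and 16.61 in SOD1, against 16.37, 16.18 and 16.63 in WT. Here WT replicate 3 lay inside the SOD1 range, and the change was 0.24 ± 0.11 (limma, adjusted p = 0.367). Its size depended on the scaling, at 0.42 on the values as deposited and 0.53 with each array centred on its median, with limma adjusted p-values of 0.130 and 0.113. These 2 probe sets moved together over the 6 arrays (Pearson r = 0.818, across arrays that share a group structure), while the dimmer 1456582_x_at (0.12 ± 0.39) and 1457371_at (0.21 ± 0.52) had wide errors.

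Pink1 showed the largest difference of the 9 genes and the widest range among SOD1 arrays of all members tested. Pink1 is the kinase that accumulates on damaged mitochondria and marks them for removal. Its probe set 1441937_s_at had 12.04, 15.08 and 15.22 on SOD1 replicates 1 to 3, against 11.73, 11.86 and 11.58 on WT replicates 1 to 3. The name ending _s_at places it among the shared probe sets, whose probes may also match other transcripts. SOD1 replicates 2 and 3 were far above the WT arrays, whereas SOD1 replicate 1 lay just above the highest of them. The means were 14.11 ± 1.80 in SOD1 and 11.72 ± 0.14 in WT (SD, n = 3 each), a change of 2.39 ± 0.65 that did not pass over all probe sets (limma, adjusted p = 0.148). The second probe set, 1451148_at, had 14.26, 15.19 and 15.25 in SOD1, against 14.21, 14.47 and 14.24 in WT. Its order was alike, with SOD1 replicate 1 inside the WT range and SOD1 replicates 2 and 3 above it, and the change was 0.59 ± 0.24 (limma, adjusted p = 0.280).

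The pair of Pink1 probe sets correlated at r = 0.984 over the 6 arrays, given as a description of arrays that share their groups. The range among the SOD1 arrays was 3.19 for 1441937_s_at, and 2.99% of all tested probe sets had as large a range, while the range among the WT arrays was 0.28. On SOD1 replicates 1 to 3 Xist was at 12.83, 12.91 and 5.71 and the microglial markers summed to 17.27, 16.57 and 16.44. The part of either in the Pink1 values was not tested beyond a fit with Xist as a covariate, in which the change of 1441937_s_at was 3.27 ± 0.78 (limma, adjusted p = 0.116). SOD1 replicate 1 was the SOD1 array nearest to the WT arrays, so leaving it out enlarges the change and shrinks the error by construction. Without SOD1 replicate 1 the change of 1441937_s_at was 3.41 ± 0.22 and passed (limma, adjusted p = 0.000998, against a range of 0.000998 to 0.373 over its 17 alternatives). It was then 1 of 2 probe sets on the whole array that passed as higher in SOD1, 0.0074% of those tested. Without SOD1 replicate 2 the change was 1.89 ± 0.69 and without SOD1 replicate 3 it was 1.82 ± 0.67, neither passing.

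**Figure D2:**
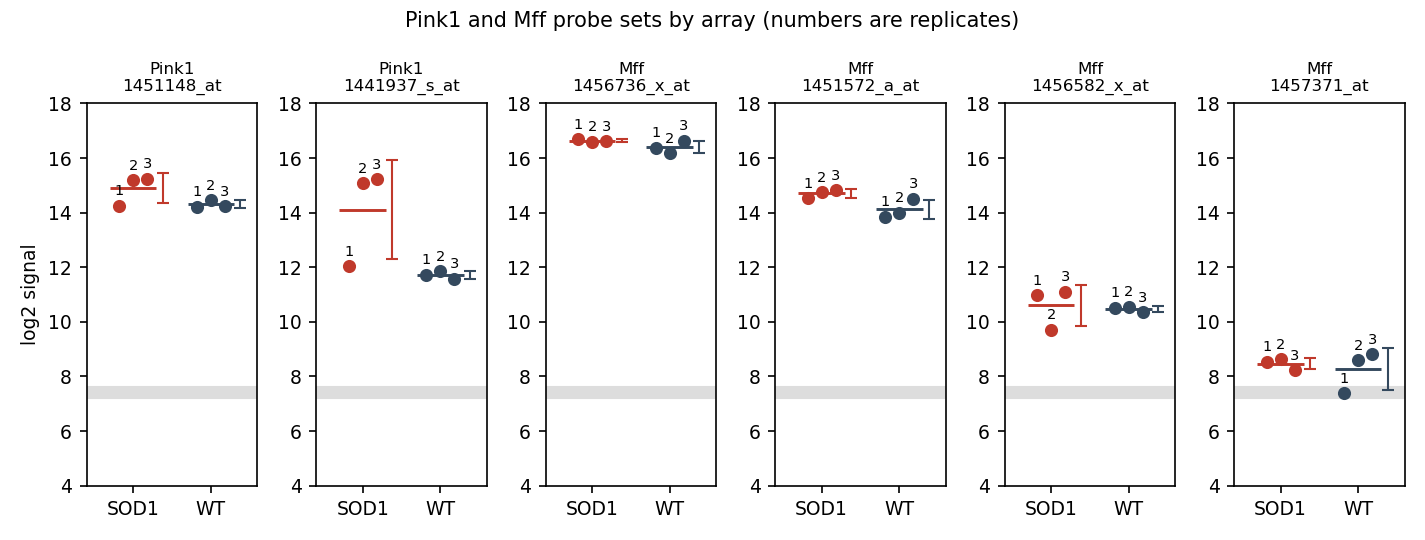
Log2 signal of the Pink1 and Mff probe sets, with SOD1 arrays left of WT arrays in each panel; points are arrays numbered by replicate, lines are means, bars beside them the SD (n = 3), and the grey band is the background level of 7.22 to 7.62. In both Pink1 panels SOD1 replicate 1 sits near the WT arrays, at 12.04 and 14.26, while SOD1 replicates 2 and 3 lie above 15.

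Rhot1, the Miro1 GTPase that links mitochondria to kinesin and dynein adaptors, had mostly negative estimates. Its probe set 1440853_at had 11.08, 10.97 and 11.08 in SOD1, against 11.58, 11.74 and 11.31 in WT. All 3 SOD1 arrays were below all WT arrays, and the change of -0.50 ± 0.26 did not pass (limma, adjusted p = 0.405). The brighter 1423533_a_at had 13.58, 13.38 and 12.89 in SOD1, against 13.35, 13.56 and 13.87 in WT, with overlap and a change of -0.31 ± 0.23 (limma, adjusted p = 0.564). The dim 1441758_at gave 0.13 ± 0.54 and was at background on 1 SOD1 array.

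Vdac1, the main anion channel of the outer membrane, was close to the top of the signal range and nearly level between the groups. Its probe set 1436992_x_at had 17.01, 17.07 and 16.81 in SOD1, against 16.91, 17.01 and 17.14 in WT, and the change was -0.05 ± 0.09 (limma, adjusted p = 0.827). The next, 1437192_x_at, gave -0.06 ± 0.09 and 1437947_x_at gave 0.04 ± 0.11. The groups overlapped in each of these, and 1415998_at gave -0.02 ± 0.17. The direction of 3 of these 4 bright Vdac1 probe sets depended on the scaling. With each array centred on its median all 4 were positive, at 0.22, 0.22, 0.28 and 0.21, none of them past the threshold. Only the dimmest, 1437452_x_at, had a wide error (-0.51 ± 0.66), with 9.07, 6.49 and 8.32 in SOD1, against 8.12, 8.87 and 8.43 in WT.

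Opa3 was read by 5 probe sets whose changes differed widely. The probe set for which the gene was chosen, 1447724_x_at, had 10.97, 10.81 and 10.86 on SOD1 replicates 1 to 3, against 12.55, 12.74 and 12.55 on WT replicates 1 to 3. The groups lay far apart and each was tight, with means of 10.88 ± 0.08 in SOD1 and 12.61 ± 0.11 in WT (SD, n = 3 each). The change was -1.73 ± 0.24, a signal 3.33-fold lower in SOD1. The name ending _x_at marks a probe set some of whose probes also match other transcripts.

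The other Opa3 probe sets of comparable brightness changed less. For 1434886_at the SOD1 arrays had 11.70, 11.66 and 11.18 and the WT arrays 11.91, 11.95 and 11.86. The SOD1 arrays were all lower, but the change was -0.40 ± 0.25, or 1.32-fold lower. For 1455131_at, designed on the same sequence record, SOD1 had 11.62, 11.71 and 11.34, against 11.71, 12.04 and 12.11 in WT. Here SOD1 replicate 2 lay level with WT replicate 1, and the change was again -0.40 ± 0.25. The dim 1458350_at gave 0.06 ± 0.50, from 7.81, 9.26 and 8.50 in SOD1 and 8.33, 8.53 and 8.53 in WT, and 1443563_at was at background on all 6 arrays. The pair on the shared record correlated with 1447724_x_at at r = 0.777 (1434886_at) and 0.773 (1455131_at) over the 6 arrays, while 1458350_at did so at -0.117. The arrays share the groups for whose difference 1447724_x_at was chosen, so each r is only a description.

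**Figure D3:**
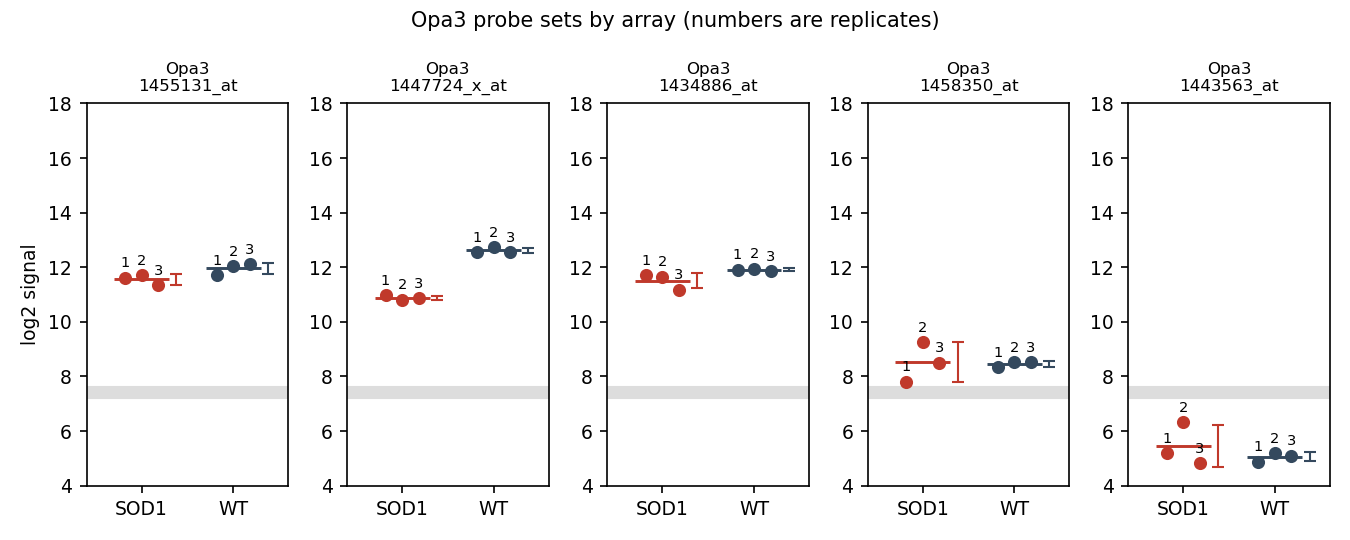
Log2 signal of the 5 Opa3 probe sets, with SOD1 arrays left of WT arrays in each panel; points are arrays numbered by replicate, lines are means, bars beside them the SD (n = 3), and the grey band is the background level of 7.22 to 7.62. The groups are far apart for 1447724_x_at, at 10.88 in SOD1 and 12.61 in WT, and close together for the rest.

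The count of members past the threshold, which was 1, rested on that probe set. It was 0 without SOD1 replicate 2, without SOD1 replicate 3, without WT replicate 1 and without WT replicate 2, and with Xist as a covariate. It was also 0 with no variance trend, with gene means and without shared probe sets. The change of 1447724_x_at lay between -1.81 and -1.68 over its 17 alternatives. These reuse the arrays for which it was chosen, so the range is only a description. In the fits without those arrays 3, 3, 3 and 4 members had an unadjusted p under 0.05 by limma, and 4 with Xist as a covariate. With no variance trend, with gene means and without shared probe sets these counts were 2, 1 and 2.

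The probe sets most like Opa3 1447724_x_at over the 6 arrays were 1447447_s_at of Srrm1, a splicing coactivator (Pearson r = 0.997), 1420855_at of Eln, which encodes elastin (0.993), 1425846_a_at of Caln1, a neuronal calcium-binding protein (0.992), 1448176_a_at of Hnrnpk, an RNA-binding protein (0.990), and 1456086_x_at of Pqbp1, a polyglutamine-binding protein (0.988). They are described with no test, since the arrays share the split by genotype. Their changes were -0.64 ± 0.18 for Srrm1, -1.44 ± 0.46 for Eln, -0.88 ± 0.11 for Caln1, -0.55 ± 0.21 for Hnrnpk and -1.92 ± 0.20 for Pqbp1.

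The wider machinery was described with 8 lists holding 84 symbols, of which 78 had a probe set and 75 were tested, by 184 probe sets. Taz and Tafazzin among them are an older and a current symbol of the same gene, and only Taz had a probe set. None of the 184 passed over all probe sets by limma, and 26 had an unadjusted p under 0.05, 18 of them higher and 8 lower in SOD1. Over all probe sets tested 0.185% passed and 14.7% had such a p. The median change of the lists was 0.10, against -0.01 over all probe sets tested, with 112 estimates above 0 and 72 below, against 13381 above and 13641 below over all probe sets. The medians were 0.07 for fusion regulators (25 probe sets), 0.10 for fission adaptors and regulators (31), 0.21 for the cristae organising system (18), 0.27 for mitophagy genes (16), 0.07 for mitochondrial transport (28), 0.15 for outer membrane channels and import (34), -0.15 for genes of 3-methylglutaconic aciduria (7) and -0.003 for genes of mitochondrial content (25). The sign of the smallest medians depended on the scaling: that of fusion regulators was -0.01 on the values as deposited, and that of mitochondrial content 0.16 with each array centred on its median.

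**Figure D4:**
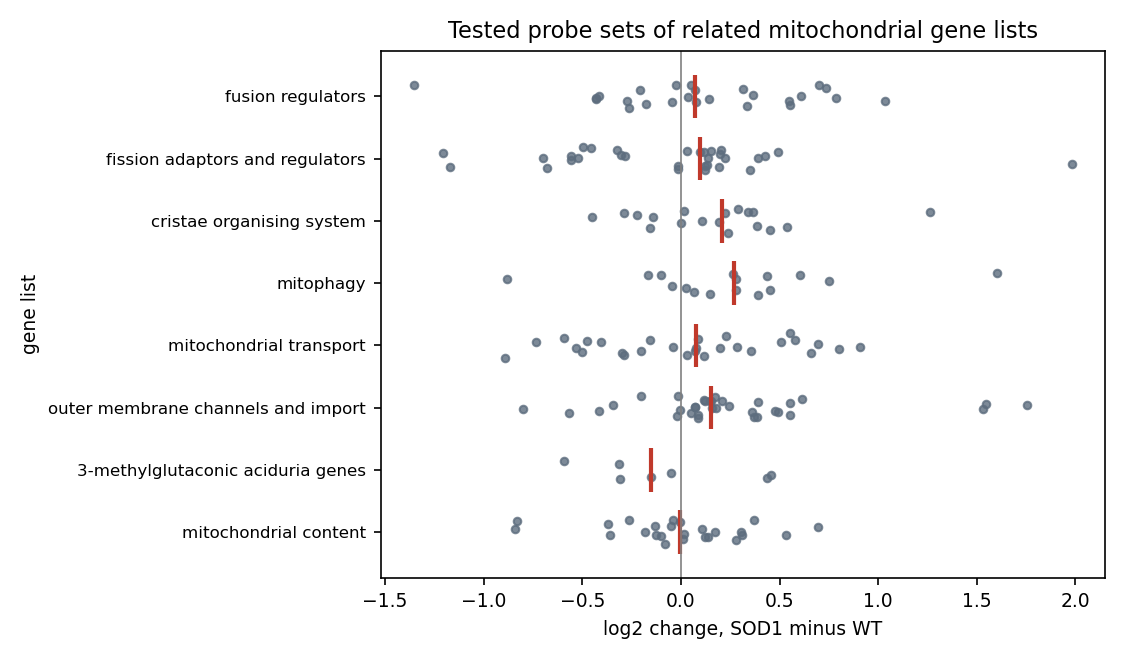
Log2 change, SOD1 minus WT, of each of the 184 tested probe sets (points, spread vertically for visibility) in 8 lists, with the list median as a red line. Medians lie between -0.15 for the 3-methylglutaconic aciduria genes and 0.27 for mitophagy, and none of the points passed the threshold.

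Among regulators of fusion, Slc25a46 encodes an outer membrane protein that binds mitofusins and Opa1. Its probe set 1448970_at had 14.14, 14.33 and 14.60 in SOD1, against 13.87, 13.56 and 13.82 in WT. There was no overlap, and the change was 0.61 ± 0.18 (limma, adjusted p = 0.165). The brighter 1418134_at overlapped between the groups and gave 0.14 ± 0.17. Phb2, a prohibitin that scaffolds the inner membrane, was at -1.36 ± 0.46 for its dim probe set 1460035_at. Its brighter probe sets gave -0.43 ± 0.22 (1438938_x_at), -0.43 ± 0.23 (1416202_at) and -0.26 ± 0.17 (1455713_x_at). Among fission genes, the ubiquitin ligase gene Mul1 was at 1.98 ± 0.98 for the dim 1434118_at, at background on 1 SOD1 and 2 WT arrays. Its brighter 1451401_a_at gave -0.28 ± 0.18. The actin nucleator gene Spire1 was at -1.21 ± 0.40 for the dim 1446117_at. The brighter Spire1 probe sets gave 0.22 ± 0.36 (1454962_at) and 0.14 ± 0.22 (1455409_at). In the cristae list, Micos10 was at 0.34 ± 0.11 for 1433616_a_at, 0.19 ± 0.08 for 1455126_x_at and -0.29 ± 0.26 for 1436001_at. Samm50, the beta-barrel assembly protein, was at -0.45 ± 0.26 for 1428068_at, -0.22 ± 0.15 for 1455800_x_at and 0.45 ± 0.75 for the dim 1440496_at.

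In the mitophagy list Tomm7, a translocase subunit needed to hold Pink1 at the outer membrane, was at 0.75 ± 0.22 for 1434732_x_at, with SOD1 above WT on all arrays. The brighter Tomm7 probe sets, also without overlap, gave 0.39 ± 0.12 (1428215_x_at) and 0.26 ± 0.13 (1428214_at). The dimmest, 1428216_s_at, was at -0.88 ± 0.52, and its groups overlapped. Of the motors, Kif5b was at 0.66 ± 0.21 and the neuronal kinesin gene Kif5a at -0.48 ± 0.15. Kif5a 1434670_at had 15.99, 16.04 and 15.71 in SOD1, against 16.09, 16.43 and 16.66 in WT, so all SOD1 arrays were below all WT arrays (limma, adjusted p = 0.182). The dimmer Kif5a probe sets gave -0.89 ± 0.36 (1450249_s_at) and 0.69 ± 0.69 (1427635_at).

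Tspo, an outer membrane protein that is abundant in microglia, had the smallest p of the lists. Its probe set 1438948_x_at had 12.04, 11.84 and 12.81 in SOD1, against 10.82, 10.04 and 11.19 in WT, a change of 1.55 ± 0.36 (limma, adjusted p = 0.117). The groups did not overlap, and the remaining Tspo probe sets gave 1.53 ± 0.38 and 1.75 ± 0.45. The microglial markers were also higher in SOD1. Within each group their order differed from that of Tspo, which was highest on SOD1 replicate 3 and WT replicate 3, where the microglial sum was lowest, at 16.44 and 13.09. The part of the microglial level in this difference was not tested. In the same list Tomm40, the import pore, was at -0.80 ± 0.38. Of the 3-methylglutaconic aciduria genes, which share a metabolic sign with human OPA3, Tmem70 was at 0.45 ± 0.25. Serac1 was at -0.60 ± 0.33 for 1440936_at and 0.44 ± 0.69 for the dimmer 1430092_at. For mitochondrial content, Ndufs1 of complex I was at 0.31 ± 0.13. Citrate synthase, Cs, was at -0.37 ± 0.14 for 1422578_at, -0.26 ± 0.11 for 1450667_a_at and 0.01 ± 0.22 for 1422577_at.

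The members' estimates and their dependence on the settings are drawn together for probe sets of Opa3, Pink1 and Mff. Opa3 1447724_x_at stayed between -1.81 and -1.68 and Pink1 1441937_s_at between 1.82 and 3.41 in the 17 alternatives that held them. The alternatives reuse the arrays for which Opa3 was chosen, so its range is only a description. Mff 1451572_a_at stayed between 0.46 and 0.79 and Pink1 1451148_at between 0.41 and 0.91, with the lowest adjusted p among their alternatives at 0.0965 and 0.0643.

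**Figure D5:**
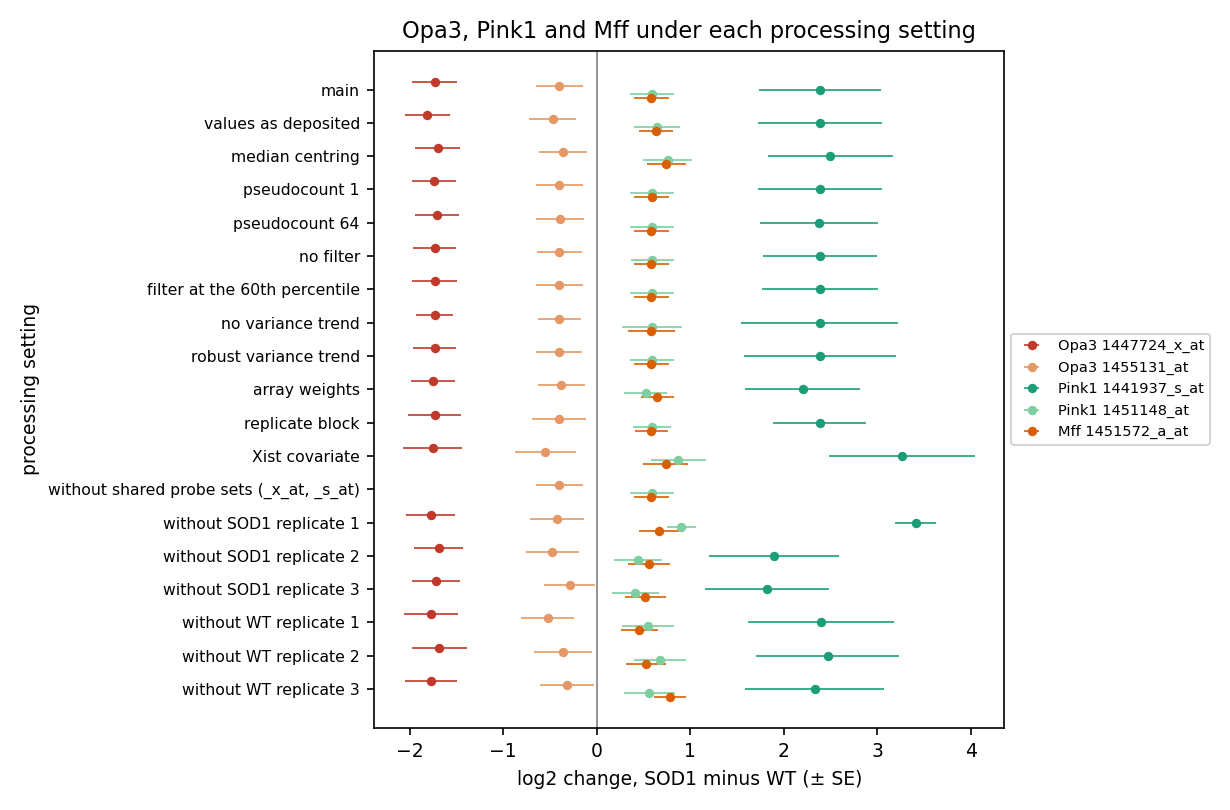
Log2 change, SOD1 minus WT, with SE bars for 5 probe sets of Opa3, Pink1 and Mff under each processing setting, from the one reported at the top to those that leave out 1 array at the bottom. Opa3 1447724_x_at stays near -1.73 throughout, while Pink1 1441937_s_at runs from 1.82 without SOD1 replicate 3 to 3.41 without SOD1 replicate 1.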

How the data were processed

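RNA from 6 samples (3 SOD1, 3 WT, grouped by their titles) was measured on a mouse Affymetrix array. The authors deposited a linear signal intensity for each probe set, scaled so that the 2% trimmed mean was 2500.02 on every array. The algorithm behind them is not given in the sources used here, and no detection calls were used. The 2 rounds of T7-based amplification, per the labels, can favour 3' ends. The number of arrays limits the precision.

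The 64 control probe sets were left out. Array medians spanned 0.24 on the log2 scale and averaged 0.11 lower in SOD1, so arrays were quantile normalised, 16 was added and log2 taken. SOD1 was compared with WT over all 27022 probe sets above the filter with limma 3.58.1 in R 4.3.3 (lmFit, eBayes with a variance trend), two-sided. The limma step was tested on simulated data. Symbols were matched through Entrez identifiers to RefSeq genes (34741 of 34945, 0 updated). The background level, chosen after seeing the data, is the 95th percentile over 27 bacterial controls. All member probe sets are named, and from each list the gene with the smallest p in each direction, and the 5 probe sets most like Opa3. The members and lists were chosen with earlier results of these data known. Alternatives covered scaling, pseudocounts of 1 and 64, filters, priors, array weights, a replicate block, Xist, gene means, shared probe sets and each array left out. Figures were drawn with matplotlib 3.10.9.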

Additional observations from a re-analysis of the deposited data

How the results depend on the processing

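With 3 arrays a group, counts of calls moved more than estimates did. Over all probe sets 17 were higher and 33 lower in SOD1. These counts were 32 and 55 with a pseudocount of 64, 35 and 71 when the filter was the 60th percentile, 32 and 68 with array weights, 73 and 117 at an adjusted p of 0.1, 7 and 4 with gene means, and 0 and 0 in limma with no variance trend, where 1584 and 1664 had an unadjusted p under 0.05. With Xist as a covariate 8 were higher. Leaving out 1 array gave 0 to 24 higher and 0 to 51 lower, the 0 without WT replicate 2 (1370 higher and 1289 lower at an unadjusted p under 0.05) and, for higher, without SOD1 replicate 2 (1483). The members called, 1 as reported, were 0 with no variance trend, with Xist as a covariate, without shared probe sets and with gene means, where limma gave 2, 4, 2 and 1 at an unadjusted p under 0.05, and 0 to 2 when 1 array was left out. Without shared probe sets Opa3 1447724_x_at and Pink1 1441937_s_at are not tested, by construction, and the other causes were not tested. The related lists had 0 called in each alternative, with 10 to 43 at an unadjusted p under 0.05 by limma. The deviations of arrays with the same replicate number correlated at 0.03, -0.04 and -0.01, and those with different numbers at -0.07 to 0.08. The labels do not say whether the numbers pair the arrays, and with 3 arrays a group these values cannot settle it. With the replicate block 36 were higher, 40 lower and 1 member was called. Dim probe sets of Mfn2, Dnm1l and Opa3 at background give no usable change.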

Other observations

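Genes that lie next to Pink1 in the annotation were looked up after its values were seen. Of 16 neighbouring protein-coding genes, 15 had a probe set. Of 20 tested probe sets among them 3 were higher and 3 lower on all SOD1 arrays than on all WT arrays, and 14 overlapped. Over all probe sets tested, 10.5% were higher and 9.81% lower in this way. Mul1, which is 3 genes away and encodes a mitochondrial ubiquitin ligase, had a dim probe set, 1434118_at. It had 6.61, 9.52 and 9.23 on SOD1 replicates 1 to 3, against 7.85, 6.85 and 4.71 on WT replicates 1 to 3. Of these, 1 SOD1 and 2 WT arrays were at background. This probe set correlated with Pink1 1441937_s_at at r = 0.841 over the 6 arrays. Each r given here describes arrays that share their groups. The bright Mul1 probe set, 1451401_a_at, had 13.84, 13.36 and 13.71 in SOD1, against 14.08, 13.79 and 13.88 in WT, and correlated at -0.792. Rap1gap, a GTPase-activating protein gene 8 places away on the other side, ran opposite to Pink1 (r = -0.972), with 13.21, 12.19 and 12.25 in SOD1, against 13.38, 13.66 and 13.77 in WT. Ddost, one of the adjacent genes, differed by -0.23 between the groups.

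The named probe sets most like Pink1 1441937_s_at, also chosen after its values were seen, were those of Scfd2 (Pearson r = 0.997 over the 6 arrays), Taf7 (0.992), Spag5 (0.990), Pgap2 (0.989) and Ubr7 (0.987). Scfd2 had 11.21, 11.90 and 11.94 in SOD1, against 11.08, 11.10 and 11.12 in WT, so SOD1 replicate 1 again lay nearest to the WT arrays. The difference in Scfd2 was 0.59, smaller than that of Pink1.

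Around Opa3, itself chosen for a lower probe set, 13 of 16 neighbouring protein-coding genes had a probe set. Of 12 tested probe sets, 5 were lower on all SOD1 arrays than on all WT arrays (of Fbxo46, Vasp, Rtn2, Ercc1 and Ppp1r13l), against 9.81% of all probe sets tested, 0 were higher and 7 overlapped. None of the 5 passed (limma, adjusted p = 0.194 for Ercc1 1417328_at to 0.484 for Ppp1r13l 1439530_a_at). Fbxo46 was at background on 1 SOD1 array. The other tested Ppp1r13l probe sets, whose groups overlapped, gave -1.71 ± 0.78 (1459592_a_at) and -0.58 ± 0.45 (1459593_x_at). Rtn2, a reticulon gene 4 places away, had 12.94, 12.93 and 13.07 in SOD1, against 13.28, 13.75 and 13.69 in WT, and Vasp, an actin regulator 2 places away, had 11.37, 11.04 and 10.80 in SOD1, against 11.60, 11.76 and 11.95 in WT. The largest difference of the 5 without overlap was -1.03, for Ercc1 1417328_at, while its 1437447_s_at, whose groups overlapped, gave -0.35.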
